A study of Mus musculus with 4 samples.

Results

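The mitochondrial ribosomal protein genes of the mouse were followed here in bone marrow neutrophils. Members were the genes whose symbol starts with Mrpl or Mrps and a digit, each read from the probe set with the highest mean over the arrays among those annotated to that gene alone. Of 76 such genes, 75 exceeded a signal floor on at least 1 array and were kept, out of 9865 genes measured in this way and 18193 named on the array. The 75 members comprised 47 Mrpl and 28 Mrps symbols.

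Each group was 1 array of pooled RNA from 3 independent experiments, hybridised to an Affymetrix 3' expression array. The groups were wild-type (miR-125a+/+) and knockout (miR-125a-/-) neutrophils of C57BL/6 mice of 8 weeks, each without lipopolysaccharide (LPS, a bacterial endotoxin sensed by Toll-like receptors) or after 3 h with it. The cells were isolated with a magnetic bead kit and kept in serum-containing medium. The labels give the deletion as whole-animal genotype and name no Cre driver, and the sources used here do not say whether the unstimulated cells spent 3 h in culture. A group is a single array, so no spread within a group was measured and no test was run. A model with only a genotype and an LPS term would have taken any unequal response as error, and was not fitted.

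The mitochondrial ribosome translates the few messages that remain in mitochondrial DNA, all of which code for membrane proteins of the respiratory chain and ATP synthase. Its RNAs are encoded in mitochondrial DNA and its proteins in the nucleus, so the latter are made in the cytosol and imported. The small subunit binds and decodes the message, and the large subunit forms peptide bonds and releases the chain through an exit tunnel to the inner membrane. Besides proteins with bacterial counterparts it holds mitochondria-specific ones. Mature neutrophils are known to hold few mitochondria and to rely largely on glycolysis.

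Values are log2 signals on the deposited scale, and a difference is the log2 signal of the first group minus that of the second. A value under the floor, log2 6.80 or a signal of 111, was set to it. A difference was called from 2-fold, and a second threshold of 1.5-fold was used because few members passed the first. Levels of different probe sets reflect probe affinity as well as RNA, so no order of expression between genes is drawn from them.

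The microRNA that the knockout mice lack and the start regions of genes that recur below are shown first, from RefSeq on GRCm38.p6. The mature 5p arm lies at chr17:17830817-17830840 on the plus strand, with its seed, bases 2 to 8, in capitals.
mmu-miR-125a-5p: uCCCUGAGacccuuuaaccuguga

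Start regions are given 5′ to 3′ on the gene's strand and end 30 bases into the transcript, with a searched motif in capitals. Mrps5, the member with the largest LPS difference, is shown at chr2:127587226-127587455 (plus strand), where ATGGCGGC, a YY1 motif, begins 2 bases after the first base of the transcript.
Mrps5: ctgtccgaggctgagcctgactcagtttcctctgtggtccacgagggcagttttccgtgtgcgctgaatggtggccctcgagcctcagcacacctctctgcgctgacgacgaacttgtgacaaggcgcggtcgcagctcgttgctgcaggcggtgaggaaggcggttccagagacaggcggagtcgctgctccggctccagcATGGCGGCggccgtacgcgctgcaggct
Mrpl12, whose LPS difference was the lowest of the large subunit in knockout cells, is shown at chr11:120484437-120484666 (plus strand), where an NRF1 motif begins 81 bases before the start.
Mrpl12: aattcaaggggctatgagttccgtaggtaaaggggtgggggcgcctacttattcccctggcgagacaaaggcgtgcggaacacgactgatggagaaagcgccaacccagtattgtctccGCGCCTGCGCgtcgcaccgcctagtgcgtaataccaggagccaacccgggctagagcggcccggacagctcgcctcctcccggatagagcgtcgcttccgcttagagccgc
Mrpl43, the member whose LPS differences in the 2 genotypes lay furthest apart, is shown at chr19:45006413-45006588 (minus strand), with ETS motifs beginning 56 and 12 bases before its start.
Mrpl43: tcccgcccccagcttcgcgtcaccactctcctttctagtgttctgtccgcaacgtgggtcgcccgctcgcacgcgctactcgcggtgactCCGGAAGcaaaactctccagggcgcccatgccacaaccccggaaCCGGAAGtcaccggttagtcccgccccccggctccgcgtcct
Mrps11 and Mrpl46, a small and a large subunit gene that start 42 bases apart on opposite strands, share the region at chr7:78783059-78783160 (plus strand, as Mrps11 reads), a stretch in which none of the motifs searched was found. The longer windows searched further on hold a YY1 motif for Mrps11 and TATAAA for Mrpl46, both outside it.
Mrps11 and Mrpl46: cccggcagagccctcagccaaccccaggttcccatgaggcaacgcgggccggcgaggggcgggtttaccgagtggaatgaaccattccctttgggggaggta

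All 75 members exceeded the floor on all 4 arrays. Their means over the 4 arrays ranged from log2 7.59 for Mrpl38 to 12.55 for Mrpl51, with a median of 10.31 against 9.46 for all 9865 measured genes. The brightest 5 probe sets, which says nothing of the order of RNA levels, were those of Mrpl51, Mrps18c, Mrpl57, Mrpl24 and Mrps14, and the dimmest 5 those of Mrpl38, Mrps6, Mrps5, Mrpl37 and Mrps31. Mrpl38 was also the member nearest the floor, at 7.87 and 8.03 on the unstimulated wild-type and knockout arrays and 6.99 and 7.46 after LPS. Mrps27, a mitochondria-specific small subunit protein, was the only gene left out by the floor, at 6.31 and 6.65 unstimulated and 6.14 and 6.53 after LPS. Mrpl30 and Mrpl53 were represented only by probe sets that also match another gene and were not members. The higher probe set shared by Mrpl30 and Gm6238 read between 12.39 and 12.54 on the 4 arrays, and the probe set shared by Mrpl53 and Ccdc142 read between 10.77 and 11.25.

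By the place of the protein, 49 members belong to the large subunit, Mrps30 and Mrps18a among them despite their symbols, and 25 to the small subunit. Mrps36 was placed in neither, because its product is known as a component of the 2-oxoglutarate dehydrogenase complex.

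The first comparison asks how the message levels of the mitochondrial ribosome differed after 3 h of LPS. In wild-type cells 1 member, Mrps5, was lower by 2-fold and 0 were higher, while 9.69% of 9507 measured genes were lower and 7.29% higher. At 1.5-fold 9 members were lower and 4 higher, against 21.0% and 15.8% of all genes. In knockout cells 0 members were lower and 0 higher by 2-fold, against 7.99% and 6.62% of 9578 genes. At 1.5-fold 6 members were lower and 2 higher there, against 19.2% and 13.8%. The members' differences also lay closer together than those of all genes, with an interquartile range of 0.56 against 0.85 in wild-type cells and 0.54 against 0.77 in knockout cells. The members' median signal was also above that of all genes, and its part in this was not tested.

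Differences below 0 were found for 43 of 75 members (57.3%) in wild-type cells and 49 of 75 (65.3%) in knockout cells, against 52.2% and 53.6% of all measured genes. Scaled to equal medians, 28 of 75 (37.3%) were below 0 in wild-type cells, where the median of all genes was then 0.20. Scaled to the poly-A control probe sets, 71 of 75 (94.7%) were below 0 in wild-type and 75 of 76 in knockout cells. The median of all genes was then -0.54 and -0.61. The members' median was -0.12 in wild-type cells, which became 0.13 when the arrays were scaled to equal medians, and -0.16 in knockout cells, where it kept its sign under every scaling tried. On the deposited scale the median of all genes was -0.03 and -0.05. The poly-A control probe sets read on average 8.72 and 8.64 on the unstimulated arrays and 9.29 and 9.25 on the LPS arrays. The 18S ribosomal RNA probe sets read 14.22 and 14.29 unstimulated and 14.93 and 15.15 after LPS, and their part in the differences was not tested. Scaling to those controls moved the median of all genes by -0.51 in wild-type and -0.56 in knockout cells, and scaling to equal medians moved it by 0.23 and 0.10, and no value here settles which scaling holds.

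**Figure D1:**
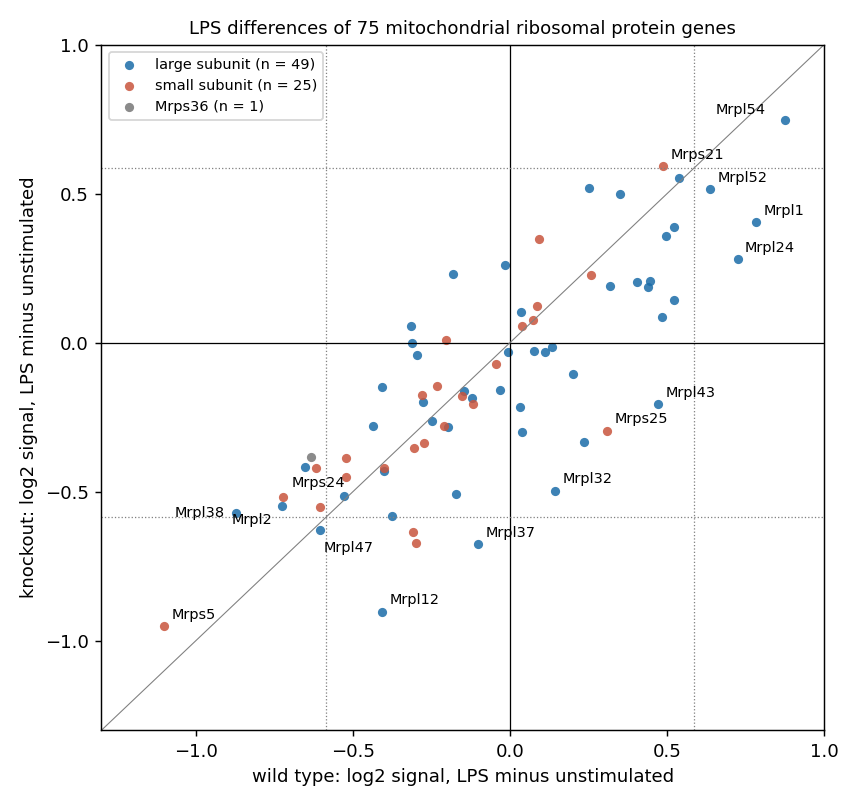
Each point is 1 of 75 mitochondrial ribosomal protein genes, with its log2 LPS minus unstimulated difference in wild-type cells on the horizontal axis and in knockout cells on the vertical axis, coloured by subunit; dotted lines mark 1.5-fold and the grey diagonal marks equal differences. Mrps5 sits alone at the lower left (-1.10 and -0.95), Mrpl54 at the upper right (0.87 and 0.75), and Mrpl43, Mrps25 and Mrpl32 lie to the right of 0 in wild-type cells and below 0 in knockout cells, whereas all 3 were below 0 in both under poly-A scaling.

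The 2 LPS comparisons share no array. Across the 75 members the differences in wild-type and knockout cells had a Pearson r of 0.80 and a Spearman rho of 0.78, and across all measured genes an r of 0.89 and a rho of 0.83; these describe genes on the same arrays, which are not independent. Both differences were below 0 for 39 members and above 0 for 22. The remaining 14 differed in sign, 10 of them above 0 in wild-type and below 0 in knockout cells. Of 9220 genes measured in both comparisons, 4080 were below 0 in both and 3535 above 0 in both. A further 883 were above 0 in wild-type and below 0 in knockout cells, and 722 the reverse.

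Mrps5, the counterpart of a bacterial protein at the channel where the message enters the small subunit, read 8.55 and 8.37 on the unstimulated wild-type and knockout arrays. After LPS it read 7.45 and 7.42. Both LPS arrays were thus below both unstimulated arrays, with a difference of -1.10 (2.14-fold) in wild-type and -0.95 (1.93-fold) in knockout cells. A second Mrps5 probe set differed by -0.80 and -0.55, and another was above the floor on the unstimulated arrays only. The wild-type call did not hold under quantile normalization (-0.76), under scaling to equal medians (-0.85) or with the floor at the 75th percentile, where only -0.01 was left above it.

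Other small subunit genes had differences below 0 that did not reach 2-fold. Mrps9, a protein of the subunit's head, read 10.10 and 10.14 unstimulated and 9.50 and 9.59 after LPS. All 4 of its probe sets were lower after LPS in both genotypes, with differences from -0.53 to -0.85 in wild-type and from -0.55 to -1.17 in knockout cells, 1 of them being under the floor on both LPS arrays. Mrps24, also of the head, read 11.20 and 11.25 unstimulated and 10.48 and 10.73 after LPS, a difference of -0.72 and -0.52. Mrps10, another head protein, differed more in knockout (-0.67) than in wild-type cells (-0.30), its knockout array having been the higher before LPS (10.05 against 9.68) and level after it (both 9.38). Mrps26, a mitochondria-specific protein, differed by -0.31 and -0.63. In the other direction stood Mrps21, a small platform protein, at 10.67 and 10.63 unstimulated and 11.16 and 11.22 after LPS, a difference of 0.49 and 0.59. A second, dimmer Mrps21 probe set differed by 0.91 in wild-type but -0.40 in knockout cells.

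Counted over the subunit, 18 of 25 small subunit members were below 0 in each genotype, against 24 of 49 large subunit members in wild-type and 30 of 49 in knockout cells. Among small subunit proteins with a bacterial counterpart the count was 13 of 16 in each genotype. Of all genes 52.2% were below 0 in wild-type and 53.6% in knockout cells. These counts are on the deposited scale and depend on it. Over all members in wild-type cells the count went from 43 to 28 of 75 under scaling to equal medians. The median difference of the small subunit was -0.23 in wild-type and -0.28 in knockout cells, the former becoming 0.01 under scaling to equal medians. That of the large subunit was 0.03 in wild-type cells, turning to -0.03 under quantile normalization, -0.53 under poly-A scaling and -0.11 with probe sets averaged, and -0.04 in knockout cells, turning to 0.06 under scaling to equal medians. The large subunit median exceeded the small by 0.26 and 0.24. In wild-type cells this gap shrank to 0.08 under quantile normalization and 0.05 with probe sets averaged, and in knockout cells it stayed between 0.15 and 0.24. The ranges of the subunits overlapped over most of their length, from -1.10 to 0.49 for the small and from -0.87 to 0.87 for the large subunit in wild-type cells.

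**Figure D2:**
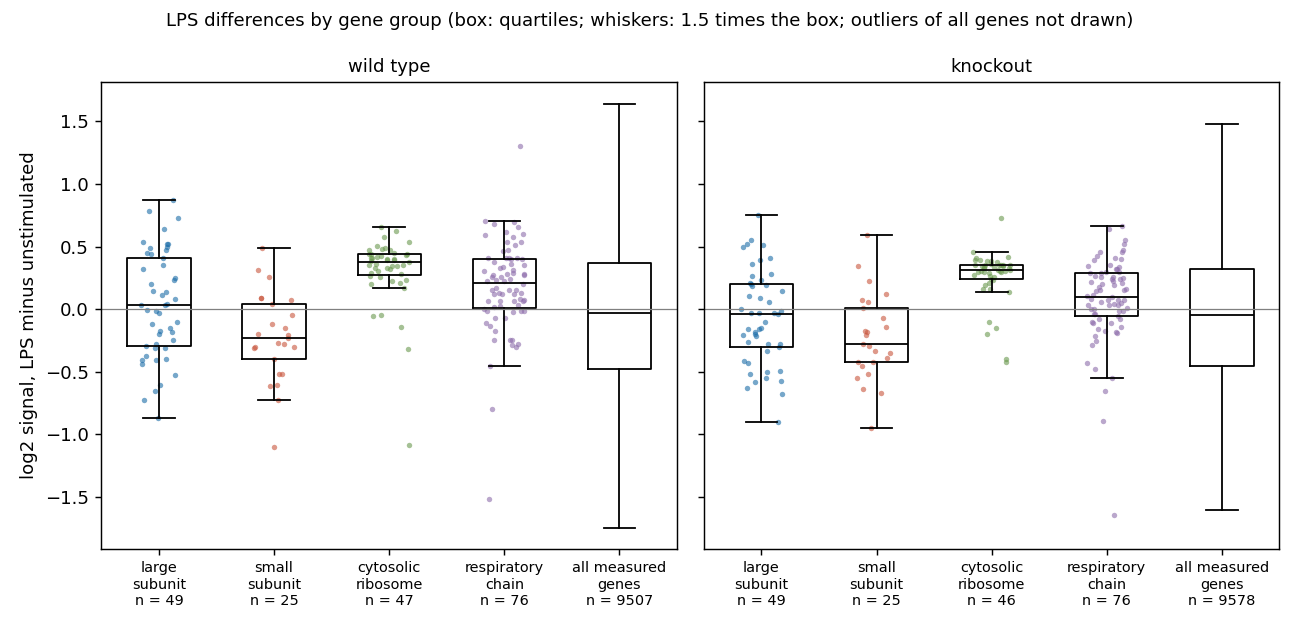
Log2 LPS minus unstimulated differences (vertical axis) of large and small subunit members, cytosolic ribosomal protein genes, respiratory chain genes and all measured genes, in wild-type cells (left) and knockout cells (right), with boxes at the quartiles and a point per gene except for all genes. The small subunit medians (-0.23 and -0.28, the first 0.01 under scaling to equal medians) lie under the large subunit medians (0.03 and -0.04), and the cytosolic ribosomal protein genes lie highest (0.37 and 0.31, both below 0 under poly-A scaling).

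Among large subunit genes, Mrpl54, a mitochondria-specific protein, was the highest of all members after LPS in both genotypes. It read 9.26 and 9.44 unstimulated and 10.13 and 10.19 after LPS, so that both LPS arrays exceeded both unstimulated arrays, by 0.87 and 0.75. Mrpl52, also mitochondria-specific, read 11.52 and 11.56 unstimulated and 12.16 and 12.08 after LPS. Its other 2 probe sets above the floor differed by 0.65 and 0.73 in wild-type and by 0.45 each in knockout cells, close to the 0.64 and 0.52 of the brightest. Mrpl4, whose bacterial counterpart lines the exit tunnel, differed by 0.54 and 0.55. Mrpl34 differed by 0.52 in knockout cells, from 9.68 to 10.20, and by 0.25 in wild-type cells, the latter becoming -0.25 with probe sets averaged. That average includes a probe set above the floor on only 2 arrays. Under poly-A scaling Mrpl4 was below 0 in both genotypes, at -0.03 and -0.06, as were Mrps21, at -0.08 and -0.02, and Mrpl34, at -0.31 and -0.09. Mrpl52 was then below 0 in knockout cells only, at -0.09.

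Mrpl24, at the exit tunnel, read 11.89 and 12.04 unstimulated and 12.61 and 12.32 after LPS, a difference of 0.72 in wild-type and 0.28 in knockout cells, the latter -0.33 under poly-A scaling. Mrpl1, a protein of the stalk where spent tRNA leaves, read 8.88 and 8.89 unstimulated and 9.67 and 9.30 after LPS, a difference of 0.78 and 0.40. A second Mrpl1 probe set, at 7.69 and 7.76 unstimulated and 6.96 and 7.60 after LPS, went the other way, by -0.73 and -0.15, so no direction is given for Mrpl1.

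Lower large subunit genes included Mrpl38, a central protuberance protein, at -0.87 and -0.57, close to the floor as given above. Mrpl2, whose bacterial counterpart lies beside the peptidyl transferase centre, read 9.87 and 9.85 unstimulated and 9.14 and 9.30 after LPS, a difference of -0.72 and -0.55. Mrpl47, near the exit tunnel, differed by -0.61 and -0.63; with Mrps5 it was lower by 1.5-fold in both genotypes, as Mrpl54 alone was higher in both. Mrps36 differed by -0.63 and -0.38.

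Mrpl46 and Mrps11, which share the start region printed above, had differences below 0 in both genotypes, of which only that of Mrpl46 in wild-type cells passed 1.5-fold. Mrpl46, of the central protuberance, read 10.13 and 9.99 unstimulated and 9.48 and 9.57 after LPS, and Mrps11, of the small subunit platform, read 9.24 and 9.13 unstimulated and 8.72 and 8.68 after LPS. Their differences were -0.65 and -0.52 in wild-type and -0.42 and -0.45 in knockout cells.

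Mrpl12, the stalk protein that in bacteria recruits translation factors, read 10.57 and 11.00 unstimulated and 10.16 and 10.10 after LPS. Its differences were -0.41 and -0.90, and the knockout array was the higher before LPS only. Of its partners at the stalk base, Mrpl10 differed by 0.44 and 0.19, and Mrpl11 by -0.18 and 0.23. Mrpl37, a mitochondria-specific protein, read 8.27 and 8.90 unstimulated and 8.17 and 8.23 after LPS, a difference of -0.10 and -0.68.

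**Figure D3:**
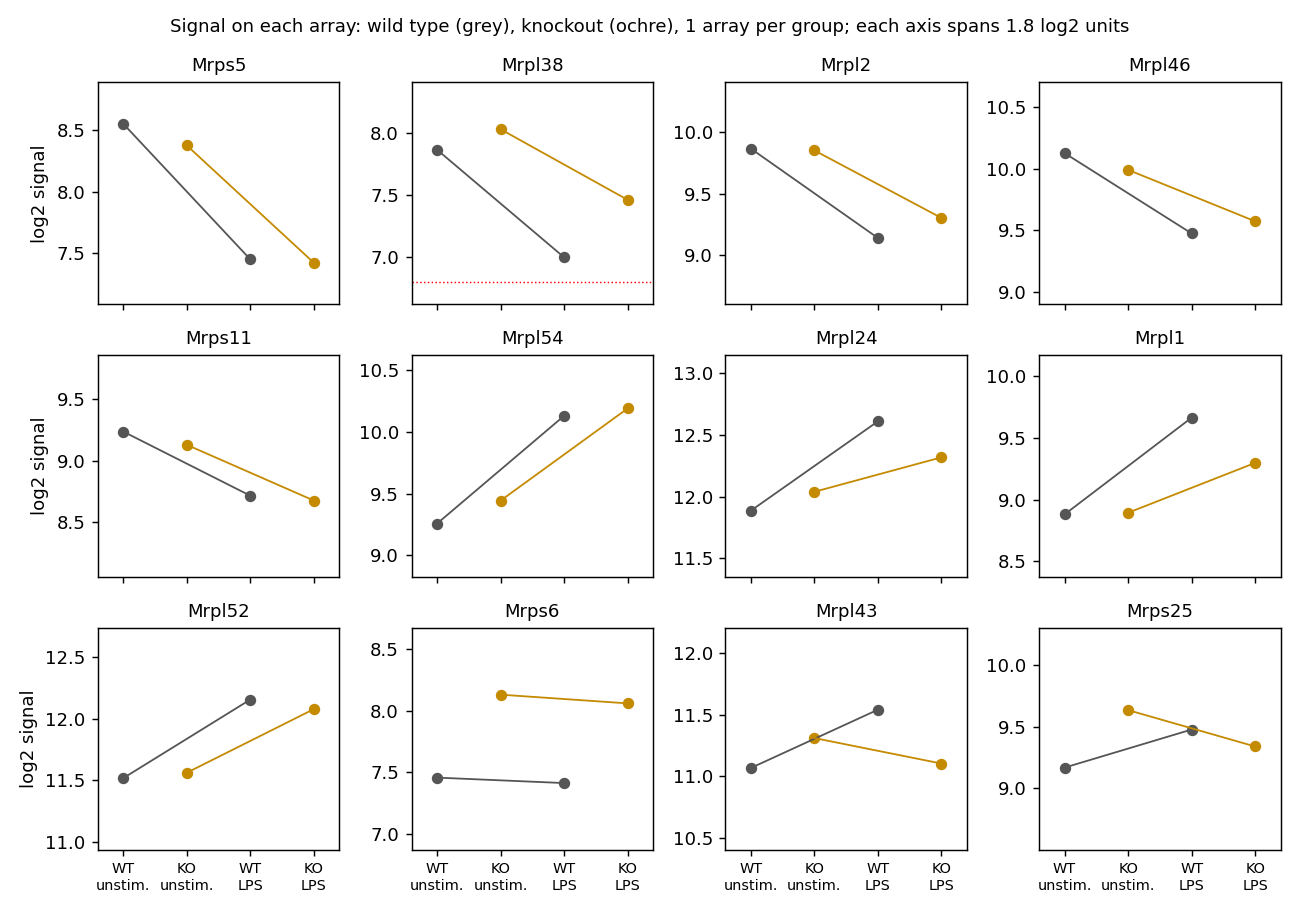
Log2 signal (vertical axis, each panel spanning 1.8 units) of 12 members on the 4 arrays, with lines joining the unstimulated and LPS arrays of wild-type (grey) and knockout (ochre) cells; the red dotted line in the Mrpl38 panel is the floor. The knockout points of Mrps6 lie above both wild-type points. For Mrpl43 and Mrps25 the knockout point lies above the wild-type point unstimulated and below it after LPS.

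The comparison of genotypes asks whether loss of miR-125a went with other levels of these genes. In unstimulated cells 0 members were higher and 0 lower in the knockout by 2-fold, against 0.351% and 0.66% of 9401 genes. At 1.5-fold 2 members, Mrps6 and Mrpl37, were higher and 0 lower, against 2.83% and 3.0%. After LPS 0 members passed 2-fold in either direction, against 0.615% higher and 0.626% lower of 9262 genes, and at 1.5-fold 1 was higher, Mrps6, and 0 lower, against 4.42% and 3.23%. Differences below 0 were found for 24 of 75 members unstimulated and 32 of 75 after LPS, against 49.1% and 51.0% of all genes. The members' median was 0.05 at each time, and after LPS it became -0.11 under scaling to equal medians, where 58 of 75 members (77.3%) were below 0. The median of all genes after LPS was -0.16 under that scaling.

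Mrps6, a small subunit protein of the platform, read 7.46 and 7.41 on the wild-type arrays and 8.13 and 8.06 on the knockout arrays. Both knockout arrays exceeded both wild-type arrays, by 0.67 (1.59-fold) unstimulated and 0.65 (1.57-fold) after LPS, while LPS made a difference of -0.04 and -0.07. A second Mrps6 probe set was higher in the knockout by at least 0.49 and 0.47, with its wild-type values under the floor. Mrps6 was the only member higher in the knockout by 1.5-fold at both times, as were 53 of 8798 genes (0.602%). Mrps6 overlaps Slc5a3, a transporter gene that starts 14 bases from it; Slc5a3, named here after its values were seen, was under the floor on all 4 arrays, between 5.44 and 6.30. The brighter Mrps6 probe set is of a kind that can match more than 1 transcript.

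Next to Mrps6 stood Mrpl37 in unstimulated cells, at 0.63 before and 0.06 after LPS. Mrps25 (0.47), Mrpl12 (0.43) and Mrpl49 (0.40) followed, and after LPS they differed by -0.14, -0.07 and -0.17. After LPS the next highest were Mrps31 at 0.53, Mrpl34 at 0.51, Mrpl38 at 0.47 and Mrpl28 at 0.37, the last becoming -0.06 without probe sets that can match several transcripts. Mrps31, a mitochondria-specific small subunit protein, read 8.71 and 8.51 on the wild-type and 9.03 and 9.03 on the knockout arrays. The lowest unstimulated differences were -0.23 for Mrpl11 (0.12 with probe sets averaged), -0.20 for Mrpl55, -0.20 for Mrpl23, -0.18 for Mrpl50 and -0.18 for Mrps5. The average for Mrpl11 includes a probe set that was under the floor on every array. The lowest after LPS were -0.44 for Mrpl43, -0.38 for Mrpl32, -0.37 for Mrpl1 (0.64 in its second probe set), -0.35 for Mrpl10 and -0.29 for Mrpl17.

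**Figure D4:**
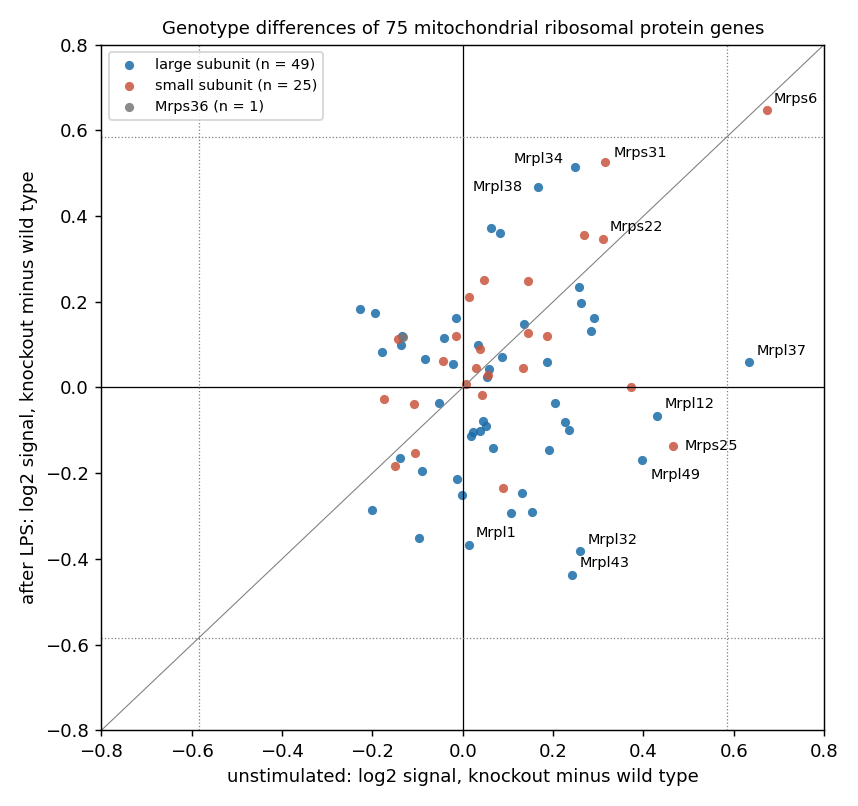
Each point is 1 of 75 members, with the log2 knockout minus wild-type difference in unstimulated cells (horizontal axis) and after LPS (vertical axis), coloured by subunit; dotted lines mark 1.5-fold. Mrps6 is alone past 1.5-fold on both axes (0.67 and 0.65), and the rest form a cloud around 0 with a Pearson r of 0.23 over all 75 members.

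The genotype comparisons at the 2 times share no array, and over the members their differences had a Pearson r of 0.23 and a Spearman rho of 0.15, against 0.28 and 0.20 over all genes. Within the large subunit r was 0.05 and within the small subunit 0.57, over 49 and 25 genes, with a rho of 0.05 and 0.46. Mrps6 had the highest difference of the small subunit at both times (0.67 and 0.65), and its part in that r was not tested.

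The difference between the 2 LPS responses, knockout minus wild type, was past 2-fold for 0 members in either direction, against 1.23% higher and 0.872% lower of 9865 genes. At 1.5-fold 3 members were lower and 0 higher, against 5.24% and 6.41%. It was below 0 for 44 of 75 members, against 51.6% of all genes, with a median of -0.03 that became 0.01 with probe sets averaged. The range ran from -0.68 for Mrpl43 to 0.41 for Mrpl11, and after Mrpl11 came Mrpl23 (0.37), Mrpl28 (0.31), Mrpl38 (0.30) and Mrpl20 (0.28). Without probe sets that can match several transcripts Mrpl28 and Mrpl38 turned to -0.29 and -0.26. The Mrpl38 probe set then used was above the floor on the unstimulated knockout array only, so its value rests on the floor and shows no measured reversal.

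The 3 members past 1.5-fold were above 0 after LPS in wild-type and below 0 in knockout cells, a pattern of opposite directions with a 1.5-fold gap that 439 of 9220 genes (4.76%) showed. Mrpl43, a mitochondria-specific large subunit protein, read 11.07 unstimulated and 11.54 after LPS in wild-type cells and 11.31 and 11.10 in knockout cells. Mrpl32, a protein that the inner membrane protease processes before it joins the ribosome, read 11.52 and 11.67 in wild-type and 11.78 and 11.29 in knockout cells. Mrps25, a mitochondria-specific small subunit protein, read 9.17 and 9.48 in wild-type and 9.64 and 9.34 in knockout cells. In each the knockout array was the higher before LPS and the lower after it. A dimmer Mrps25 probe set went the other way, by -0.24 in wild-type and 0.07 in knockout cells. The opposite directions did not hold under poly-A scaling, where the wild-type differences became -0.09 for Mrpl43, -0.42 for Mrpl32 and -0.26 for Mrps25. Mrpl37 (-0.57) and Mrpl49 (-0.57) came next.

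Where probe sets could be compared, they limit how finely single members can be read. Of the members 25 had more than 1 probe set above the floor on every array, and the median gap between a gene's highest and lowest probe set was 0.31 for the wild-type LPS difference and 0.24 for the unstimulated genotype difference. The probe sets disagreed in sign in 7 of the 25 genes for LPS in wild-type cells and 11 in knockout cells. For the genotype differences they disagreed in 15 unstimulated and 18 after LPS, and for the difference between responses in 13. The widest gap was in Mrpl15, with 8 probe sets: the brightest differed by -0.37 and -0.58 after LPS, and another by -2.35 and -2.03. Of the 75 members 33 had a single probe set.

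The rest of the mitochondrial translation machinery was counted from lists. Of ribosomal proteins with other names, Dap3, Chchd1, Ptcd3 and Gadd45gip1 were measured, and 0 of 4 passed 2-fold in either LPS comparison. Of all genes 17.0% passed it in wild-type and 14.6% in knockout cells. In wild-type cells their differences lay between -0.04 and 0.20, and in knockout cells between -0.64 and -0.16. Gadd45gip1, also known as a mitochondrial large subunit protein, read 8.16 unstimulated and 8.34 after LPS in wild-type cells and 9.01 and 8.37 in knockout cells. All 4 differences between responses were below 0, with a median of -0.51, against 51.6% of 9865 genes. With 4 genes and 1 array per group this was not tested.

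Of 22 genes for assembly and ribosomal RNA modification, 1 was higher and 2 lower by 2-fold in each genotype, against 7.29% and 9.69% of all genes in wild-type and 6.62% and 7.99% in knockout cells. In wild-type cells the lower count became 0 under quantile normalization and 6 under poly-A scaling, where 707 of 9597 and 2389 of 9605 genes were lower. Tfb1m, which dimethylates the small ribosomal RNA, read 8.91 and 7.54 on the unstimulated wild-type and knockout arrays and 10.16 and 9.67 after LPS. It was higher after LPS by 1.25 and 2.13, and lower in the unstimulated knockout, at -1.37, the only gene of the list past 2-fold there. These calls rest on a probe set of a kind that can match several transcripts. In the remaining Tfb1m probe set both unstimulated arrays were under the floor, so its LPS differences were 0.97 and 0.89 or higher and no call was reached. The genotype call was also lost with probe sets averaged (-0.69) and under the 75th-percentile floor (-0.37 or lower), and the wild-type LPS call under poly-A scaling (0.68). Ddx28, an RNA helicase of large subunit assembly, differed by -1.11 and -1.31, Nsun4, a ribosomal RNA methyltransferase, by -1.25 and -0.66, and Mrm3, a methyltransferase of the large ribosomal RNA, by -0.41 or lower in wild-type cells, where its LPS value was under the floor, and by -1.11 in knockout cells.

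Among the 11 mitochondrial aminoacyl-tRNA synthetases measured, which charge the tRNAs that the ribosome reads, 0 were higher and 2 lower by 2-fold in each genotype. Of all genes 7.29% were higher and 9.69% lower in wild-type cells, and 6.62% and 7.99% in knockout cells. Differences below 0 were found for 9 of 11 in wild-type and 10 of 11 in knockout cells, against 52.2% and 53.6% of all genes. The medians of the synthetases, -0.55 and -0.72, stayed below 0 under every scaling tried. Rars2 read 9.62 and 9.40 unstimulated and 8.40 and 8.52 after LPS. Nars2 was above the floor before LPS only, at 8.01 and 7.92, which bounds its differences at -1.22 and -1.12 or lower, and Hars2 differed by -0.55 and -1.26.

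Of 14 and 13 translation factors measured in wild-type and knockout cells, 0 were higher in either; Lrpprc, which stabilises mitochondrial messages, was lower in knockout cells by 2-fold (-1.15) and differed by -0.25 in wild-type cells. Their extremes in wild-type cells were Mtif3 at 0.85 and Tsfm at -0.75, an initiation and an elongation factor. Of 16 regulators of mitochondrial gene expression measured in wild-type cells, 1 was higher and 3 lower by 2-fold, and of 15 in knockout cells 1 was higher and 1 lower. Beside these 2 lists, 7.29% of all genes were higher and 9.69% lower in wild-type cells, and 6.62% and 7.99% in knockout cells. Esrra, a nuclear receptor that activates genes of oxidative metabolism, was the higher in both, at 9.27 and 9.05 unstimulated and 11.09 and 10.81 after LPS. Trmt10c, a subunit of mitochondrial RNase P, was the lower in both, at -1.92 and -1.72. Tfb2m, a mitochondrial transcription factor, and Gabpa, the ETS factor of many mitochondrial promoters, passed 2-fold in wild-type cells only, at -1.06 and -1.04 against -0.77 and -0.55 in knockout cells; those gaps were not tested. Under quantile normalization the wild-type counts of this list became 3 higher and 2 lower, against 835 higher and 707 lower of 9597 genes.

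Set beside the other gene groups of protein synthesis and respiration, the members had the lowest LPS medians of the 3 groups. Among cytosolic ribosomal protein genes the median was 0.37 over 47 genes in wild-type and 0.31 over 46 in knockout cells, with 5 below 0 in each. Among respiratory chain and ATP synthase genes it was 0.21 and 0.10 over 76, with 18 and 26 below 0. Of all genes 52.2% and 53.6% were below 0. Under poly-A scaling all of these medians were below 0, at -0.19 and -0.30 for the cytosolic ribosome and -0.35 and -0.51 for the respiratory chain, and under quantile normalization they came to 0.10, 0.05, 0.03 and -0.01. The cytosolic and respiratory genes had brighter probe sets, with median means of 14.46 and 12.62 against 10.31 for the members.

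Promoter windows from 250 bases before to 30 after the start were found for 66 of the 75 members. On both strands 6 motifs were searched, each by itself and with overlaps between motifs allowed. The ETS motif CCGGAAG was present in 22 of 66 member windows (33.3%), against 12.4% of 17492 protein-coding genes and 8.45% of all 32851 windows. The NRF1 motif GCGCANGCGC was present in 18.2%, against 6.87% and 4.41%, and the YY1 motif ATGGCGGC in 10.6%, against 2.43% and 1.61%. At least 1 of these 3 occurred in 33 of 66 members and in 19.5% of protein-coding genes. For the E-box CACGTG the shares were 7.58% and 8.55%, for TATAAA 7.58% and 14.4%, and GGGNNTTTCC, an NF-kB motif, was in 0 of 66 windows against 1.77%. A match describes the letters of the window and is no evidence of binding.

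Members with the ETS motif had a median LPS difference of 0.09 in wild-type and -0.02 in knockout cells, and the 44 without it -0.20 and -0.27. For NRF1 the medians with and without were 0.04 and -0.12 in wild-type and -0.28 and -0.15 in knockout cells, and for YY1 -0.28 and -0.04 in wild-type and -0.28 and -0.16 in knockout cells. Of the regions printed above, that of Mrpl43 holds 2 ETS motifs, that of Mrpl12 an NRF1 motif and that of Mrps5 a YY1 motif.

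A start site of another gene on the opposite strand lay within 1000 bases upstream for 24 of 66 members (36.4%), against 13.2% of protein-coding genes. Mrpl43 starts 116 bases from Twnk, the mitochondrial DNA helicase gene, and Mrps12 147 bases from Sars2, a mitochondrial aminoacyl-tRNA synthetase gene that was under the floor. Twnk differed by -1.03 and -0.46 after LPS where Mrpl43 differed by 0.47 and -0.21. Mrpl2 and its neighbour Klc4, a kinesin light chain gene 141 bases away, differed by -0.72 and 0.86 in wild-type and by -0.55 and 0.50 in knockout cells. In wild-type cells Mrpl14, Mrpl18, Mrpl40, Mrpl41, Mrpl55, Mrpl57, Mrps18b and Mrps7 also differed in sign from their neighbours, some values lying near 0. Signs were the same for Mrpl27, Mrpl32, Mrpl47, Mrpl49, Mrpl51 and Mrps18c and their neighbours, and for the pair of Mrpl46 and Mrps11.

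The labelled cell type was checked with marker genes. All 9 neutrophil markers matched, among them the granule genes Ltf, Camp and Ngp, were above the floor on every array, with S100a8 between 15.67 and 16.20. They were not used to tell mature from immature neutrophils. Their summed signal was log2 18.00 and 18.14 on the unstimulated wild-type and knockout arrays and 18.11 and 18.30 after LPS. The 5 neutrophil precursor genes, such as Mpo, were all below 0 after LPS, with medians of -0.55 and -0.67, and their summed signal went from 15.93 and 15.97 to 15.56 and 15.44. Of 9 proliferation genes measured, 6 were below 0 in each genotype with medians of -0.19 and -0.18, and their summed signal ranged from 16.06 to 16.29. Of all genes 52.2% were below 0 after LPS in wild-type and 53.6% in knockout cells. In pooled cells a smaller share of a cell type and less RNA per cell cannot be told apart.

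Markers of other cells differed between groups too. For the erythroid list, 1 of 4 genes was lower by 2-fold after LPS in wild-type and 4 of 5 in knockout cells, and its summed signal was 11.24 and 12.01 unstimulated against 10.20 and 10.13; Hba-a1 and Alas2 were under the floor throughout. Klf1, Slc4a1 and Car1 were under the floor on both LPS arrays, so the differences of Klf1 (-0.83 and -1.05) and Slc4a1 (-0.97 and -1.83) are bounds, and the counts of the genotypes cannot be set against each other. The erythroid sum was higher on the unstimulated knockout array than on the wild-type one. In that comparison 51 of 75 members were above 0, against 4786 of 9401 genes. So were all 9 neutrophil markers and 36 of 46 cytosolic ribosomal protein genes. Eosinophil, basophil and mast cell genes were lower by 2-fold in the knockout for 4 of 5 genes unstimulated and 2 of 4 after LPS, against 0.66% and 0.626% of all genes. Their summed signals were 12.07 and 10.95 before and 11.82 and 10.62 after LPS. Ms4a2 and Fcer1a were under the floor. The differences of Cpa3 unstimulated (-1.08) and of Epx after LPS (-0.93) are bounds, because their knockout values there were under the floor. Cpa3 was under it on both LPS arrays, so the counts before and after LPS cannot be set against each other. Of 7 monocyte and macrophage genes 3 were higher and 3 lower by 2-fold after LPS in each genotype, with sums between 14.79 and 15.41. After LPS 7.29% of all genes were higher and 9.69% lower by 2-fold in wild-type cells, and 6.62% and 7.99% in knockout cells. T and NK cell sums lay between 10.35 and 11.46 with Cd3e under the floor, B and plasma cell sums between 14.27 and 14.61 with Ms4a1 and Pax5 under it, and stem and progenitor sums between 8.91 and 9.45 with Flt3 and Meis1 under it. The part of these cells in the members' differences was not tested.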

How the data were processed

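The data are 4 arrays, 1 per group, with no array lacking a group label. Per the submitters' processing notes the deposited values were made with MAS5; the sources used here name neither its version nor its target. The deposited log2 signals, once unlogged, had a trimmed mean of 500.00 on every array (2% cut at each end), so arrays had been scaled to a common target. Between 37.8% and 41.5% of 45101 probe sets exceeded the floor. Precision is limited by the number of arrays.

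Gene symbols came from GEO's platform annotation: 34958 had 1 symbol, 932 several and 9211 were not listed. Members and lists were chosen with earlier results of these data known, and the groups by place in the ribosome, and the placing of Mrpl57 and Mrpl58 as members under their present symbols, were set after values were seen. The floor was the 60th percentile of all values; a comparison used genes above it on 1 or more of the arrays compared. Members were named where they passed 2-fold, ranked among the 5 highest or 5 lowest differences of a comparison or array means, or lay beside the floor; list genes where they passed 2-fold or were extremes. Others named for a shared start region, further probe sets or a role at the stalk or head were chosen after their values were seen. Alternatives were no floor, other floors, quantile normalization, scaling to medians or poly-A controls, averaging probe sets, leaving out probe sets that can match several transcripts, and a 1.5-fold threshold. Probe sets were averaged before the floor was applied, so the averages include probe sets under it. The calculations, checked on simulated data, used Python 3.11.15, pandas 2.3.3 and numpy 2.4.6.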

Additional observations from a re-analysis of the deposited data

Results flagged for a closer look

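Mrpl43, Mrpl32 and Mrps25 were each above 0 after LPS in wild-type cells and below 0 in knockout cells on the deposited scale. Under poly-A scaling all 3 were below 0 in both genotypes, with wild-type differences of -0.09, -0.42 and -0.26. The difference between the responses, knockout minus wild type, was -0.68 for Mrpl43, -0.64 for Mrpl32 and -0.60 for Mrps25. With 1 array per group this difference was not tested, and no explanation was examined. Mrpl43 and Mrpl32 each have a single probe set. For Mrps25 the difference became 0.29 when its 3 probe sets were averaged. That average includes a probe set that was under the floor on every array.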

How the results depend on the processing

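Each group is 1 array of pooled RNA, so no array could be left out and no value has an error between experiments. No paired analysis was possible because the groups share a single replicate number. Of members called after LPS in wild-type cells, the higher count of 0 became 2 with scaling to equal medians and 4 at 1.5-fold, and the lower count of 1 became 0 with quantile normalization, scaling to equal medians and a 75th-percentile floor, 12 with poly-A scaling and 9 at 1.5-fold. Among all genes in wild-type cells, 1030 of 9581 were higher with scaling to equal medians and 2389 of 9605 lower with poly-A scaling. The members' median of -0.12 there became 0.13 with scaling to equal medians, -0.68 with poly-A scaling and -0.011 without probe sets that can match several transcripts. In knockout cells the higher count became 2 with probe sets averaged and 2 at 1.5-fold, the lower count 19 with poly-A scaling, 4 with probe sets averaged and 6 at 1.5-fold, and the median -0.058 with scaling to equal medians and -0.77 with poly-A scaling. Among all genes in knockout cells, 2574 of 9785 were lower with poly-A scaling. With probe sets averaged, 518 of 8429 were higher and 642 lower. For the genotype differences the higher count of 0 became 1 unstimulated and 3 after LPS with probe sets averaged, and 2 and 1 at 1.5-fold, and the median after LPS became -0.11 with scaling to equal medians. Among all genes, 47 of 8272 were higher unstimulated and 90 of 8014 after LPS with probe sets averaged. For the difference between responses the higher count became 3 and the lower 1 with probe sets averaged, the lower 3 at 1.5-fold, and the median -0.17 with scaling to equal medians. Among all genes, 166 of 8748 were higher and 98 lower here with probe sets averaged. Scaling to equal medians or to the poly-A controls shifts all genes of an array alike, whereas quantile normalization does not. Other causes were not tested. Of the 50 differences named by their rank, 0 changed sign without a floor, with quantile normalization or with scaling to equal medians, and 5 did with poly-A scaling; of 45 that could be had with probe sets averaged 6 did, and of 44 without probe sets that can match several transcripts 3 did. The share of higher calls among all genes called in wild-type cells after LPS moved from 42.9% to 54.2% with quantile normalization, 62.4% with scaling to equal medians and 12.5% with poly-A scaling; in knockout cells it moved from 45.3% to 10.9% with poly-A scaling, and after LPS between genotypes from 49.6% to 38.2% with quantile normalization and 25.5% with scaling to equal medians. Between genotypes unstimulated it moved from 34.7% to 55.2% with poly-A scaling, 46.8% without a floor and 46.1% with probe sets averaged, and between responses from 58.5% to 44.0% with quantile normalization, 35.0% with scaling to equal medians and 47.7% with poly-A scaling.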
